A study of Mus musculus with 6 samples.

Results

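The genes described here are 10 surface molecules through which antigen-presenting cells and T cells stimulate or restrain each other: *Cd40*, *Cd80*, *Cd86*, *Cd83*, *Cd274*, *Pdcd1lg2*, *Icosl*, *Cd69*, *Slamf1*, and *Cd200r1*. They were chosen by name, as every array probe that is not a control and carries one of these gene names, which gave 10 of 34787 gene names and 13 of 55681 probes. The experiment asked how a chemical inhibitor of the deubiquitinating enzyme USP7 alters the transcriptional response of macrophages to LPS, a bacterial cell wall component sensed by TLR4. Bone marrow cells of female C57BL/6 mice aged 6 to 8 weeks, as the labels state, had been cultured for 7 days in L929-conditioned medium to give BMDMs in all groups. Of the 3 groups, the untreated BMDMs received neither agent, the LPS group received LPS for 4 h, and the LPS+USP7i group received 10 μM of the USP7 inhibitor HBX41,108 for 30 min and then LPS for 4 h. The paper gives another age of the mice and gives LPS per ml. The labels and the series description give LPS as 100 ng but per different volumes (µl and ml), and neither says whether the LPS group received the inhibitor's solvent.

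CD80, CD86, and ICOSL on an activated macrophage or dendritic cell bind CD28, CTLA-4, or ICOS on T cells and help to decide whether antigen recognition leads to activation, while PD-L1 (*Cd274*) and PD-L2 (*Pdcd1lg2*) bind PD-1 and restrain it. CD40 works in the opposite direction: it is a receptor that takes up the signal of CD40L from T cells and passes it on through TRAF adaptors to canonical and non-canonical NF-κB. Not all 10 are ligands, since *Cd200r1* encodes an inhibitory receptor of myeloid cells, *Slamf1* a receptor that binds itself, and *Cd69* and *Cd83* surface proteins used as markers of activation.

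Each group was measured on 2 one-color Agilent arrays, numbered replicate 1 and 2, and all 6 arrays lay on 1 slide. Untreated cells occupied slide row 1, LPS cells row 2, and LPS+USP7i cells row 4, so slide row and treatment cannot be told apart. Signals are given as log2 of the quantile-normalized processed signal, and a gene was called higher or lower when its adjusted p from limma was under 0.05 over 55680 probes. Of the 59305 spots that were not controls, 27467 and 27126 were well above background (by the scanner software's own test) in untreated cells, 25223 and 25002 in LPS cells, and 26415 and 25290 in LPS+USP7i cells. Of the 10 genes, 8 were well above background on all 6 arrays, and *Slamf1* and *Pdcd1lg2* were not. A signal from a cell culture does not tell fewer expressing cells from less RNA per cell.

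Most of these genes rose with LPS, and each of those that rose had a lower mean when the inhibitor had been given first, 3 of them past the threshold. The rise was called on the same LPS arrays, so a lower mean with the inhibitor is favored by that choice. No share of all genes raised by LPS is given beside it. In LPS compared with untreated cells, 7 of the 10 were higher (*Cd40*, *Cd69*, *Cd274*, *Cd83*, *Icosl*, *Cd86*, and *Slamf1*), 1 was lower (*Cd80*, by its brighter probe), and 2 passed the threshold in neither direction. Over all genes, 7.98% were called higher and 12.8% lower in that comparison. With the inhibitor before LPS, against LPS alone, 3 of the 10 were lower (*Cd40*, *Cd83*, and *Icosl*), 0 were higher, and 7 passed in neither direction, beside 4.27% lower and 5.52% higher over all genes. By limma's unadjusted p under 0.05, 8 of the 10 were lower and 1 was higher. No share of all genes at that unadjusted threshold is given, so this count is not set against all genes. Against untreated cells, 6 of the 10 were higher with LPS+USP7i and 1 was lower, beside 6.16% and 8.71% of all genes.

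The median log2 difference of the 10 genes was 2.66 for LPS minus untreated, beside 0.00 over all genes. Taken between arrays of the same replicate number, it was 2.91 and 2.43. For LPS+USP7i minus LPS the median was −1.04, again beside 0.00 over all genes, and −1.34 and −0.74 by replicate number. With *Slamf1*, which was mostly near background, measured from the weakest signal that counted as well above background, these medians were 2.63 and −0.85. For LPS+USP7i minus untreated the median was 0.98 (0.87 and 1.09). All 3 comparisons are drawn from the same 6 arrays and both LPS comparisons use the same LPS arrays, so a low or high LPS array moves them in opposite directions.

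**Figure D1:**
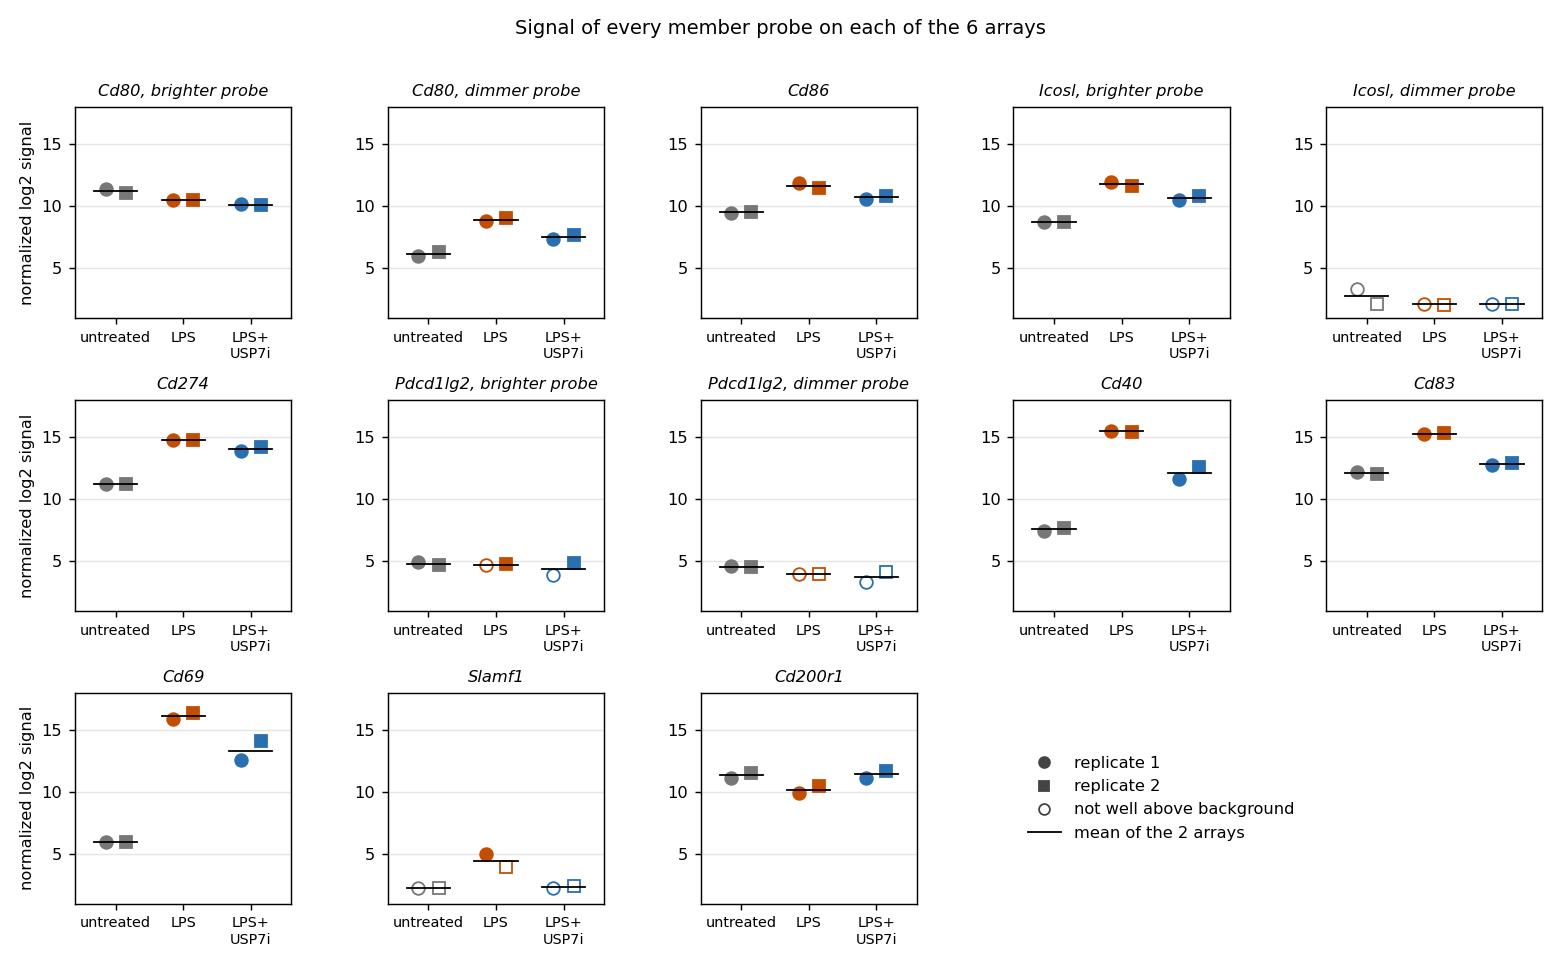
Log2 normalized signal of all 13 probes of the 10 genes on each of the 6 arrays, one panel per probe, with circles for replicate 1, squares for replicate 2, open symbols where the spot was not well above background, and a line at the mean of the 2 arrays. *Cd40* and *Cd69* show the widest steps between untreated and LPS cells, and *Cd200r1* is the gene whose LPS arrays lie below those of both other groups.

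*Cd80* and *Cd86* encode B7-1 and B7-2, the costimulatory ligands of CD28. *Cd86* read 9.49 and 9.59 in untreated cells, 11.90 and 11.48 in LPS cells, and 10.63 and 10.83 in LPS+USP7i cells (probe chr16:36603961-36604020, mm9). The 3 groups did not overlap, and the inhibitor-treated arrays lay between the others. *Cd86* was 4.44-fold higher with LPS (log2 difference 2.15, standard error 0.17, adjusted p = 0.00625). Between LPS+USP7i and LPS its log2 difference was −0.96 (95% interval −1.44 to −0.48, adjusted p = 0.0556) and thus missed the threshold. As *Cd86* has 1 probe, this difference is unchanged by the mean of a gene's probes, and only its adjusted p moves. It passed with normexp background correction (0.0159), with dim probes left out (0.0179), with a trended prior (0.0388), and with the mean of a gene's probes (0.0464), in a range of 0.0159 to 0.181 over 15 alternatives.

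*Cd80* had 2 probes, and they differed in direction under LPS. The brighter probe (chr16:38486772-38486831, mm9) read 11.41 and 11.09 in untreated cells, 10.54 and 10.55 in LPS cells, and 10.21 and 10.10 in LPS+USP7i cells. The dimmer probe (chr16:38479343-38479402), which starts 7429 bases upstream, read 6.01 and 6.32 in untreated cells, 8.80 and 9.08 in LPS cells, and 7.37 and 7.67 in LPS+USP7i cells. On the brighter probe the untreated arrays were the highest and the inhibitor-treated arrays the lowest, while on the dimmer probe the LPS arrays were the highest and the untreated arrays the lowest, with no overlap of groups on either. Both probes were well above background on all 6 arrays, and the array annotation assigns both to the same RefSeq transcript. In log2 terms the brighter probe fell by 0.71 with LPS (adjusted p = 0.0347, standard error 0.13), which is 1.63-fold. The dimmer probe rose by 2.78 (adjusted p = 0.00476, standard error 0.19), which is 6.85-fold.

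The increase on the dimmer *Cd80* probe passed in the 10 of 10 alternatives run for it (3 scalings, outlier spots kept, and each array left out), with differences of 2.06 to 2.93 and adjusted p values of 0.000191 to 0.0345. The decrease on the brighter probe failed the threshold in fits of 2 groups (adjusted p = 0.0733), without untreated replicate 1 (0.0719), without LPS replicate 1 (0.133) or 2 (0.123), and without LPS+USP7i replicate 1 or 2 (0.0733). With the inhibitor both probes read lower than with LPS alone. The dimmer probe fell by 1.41 (adjusted p = 0.0308, standard error 0.19), or 2.67-fold, on both replicates (−1.42 and −1.41), and the brighter probe differed by −0.39 (95% interval −0.75 to −0.03, adjusted p = 0.184). The call on the dimmer probe held in 4 of 10 alternatives and was lost without any 1 array (adjusted p = 0.0778 without untreated replicate 1 or 2, 0.0868 and 0.104 without LPS replicate 1 or 2, 0.102 and 0.0587 without LPS+USP7i replicate 1 or 2). Compared with untreated cells, LPS+USP7i cells were 2.14-fold lower on the brighter probe (adjusted p = 0.0170) and 2.57-fold higher on the dimmer one (adjusted p = 0.0234). The first call was lost in fits of 2 groups and without either LPS array (0.0542) and without LPS+USP7i replicate 1 (0.0594) or 2 (0.0678). The second was lost without any 1 array (0.0988 and 0.0764 without untreated replicate 1 or 2, 0.0546 without either LPS array, 0.0574 and 0.0789 without LPS+USP7i replicate 1 or 2). Which transcript forms each probe detects was not tested, so no direction is given for *Cd80* as a gene.

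**Figure D2:**
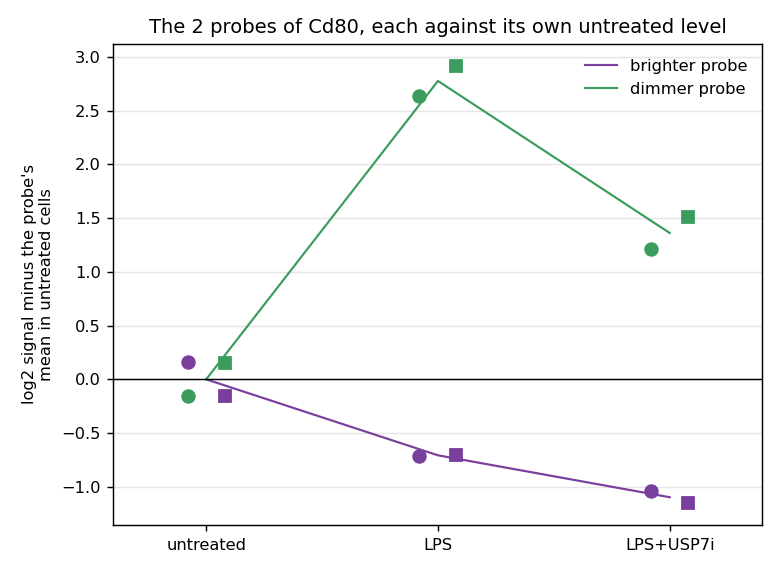
Log2 signal of the 2 *Cd80* probes on the 6 arrays, each minus its own mean in untreated cells, with circles for replicate 1, squares for replicate 2, and lines through the group means. From untreated to LPS the brighter probe goes down by 0.71 and the dimmer one up by 2.78, while LPS+USP7i lies below LPS on both.

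*Icosl* encodes the ligand of ICOS on T cells. Its brighter probe (chr10:77542211-77542270, mm9) read 8.73 and 8.71 in untreated cells, 11.96 and 11.69 in LPS cells, and 10.55 and 10.85 in LPS+USP7i cells. The LPS arrays were the highest, the inhibitor-treated arrays intermediate, and no groups overlapped. LPS raised it 8.58-fold (log2 difference 3.1, standard error 0.15, adjusted p = 0.00331), or by 1.23 with the mean of its probes. With the inhibitor it fell by 1.12 (standard error 0.15, 95% interval −1.54 to −0.70, adjusted p = 0.0318), which is 2.18-fold lower than with LPS. This call was lost in fits of 2 groups and without either untreated array (0.0970), with a replicate block (0.0661), without LPS replicate 1 (0.103) or 2 (0.0714), without LPS+USP7i replicate 1 (0.0864), and with the mean of its probes (0.272). A second *Icosl* probe (chr10:77545941-77546000) did not stand well above background on any array.

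*Cd274* and *Pdcd1lg2* encode PD-L1 and PD-L2, the inhibitory ligands of PD-1, and lie near each other on chromosome 19. *Cd274* (chr19:29462363-29462422, mm9) read 11.21 and 11.23 in untreated cells, 14.81 and 14.79 in LPS cells, and 13.89 and 14.23 in LPS+USP7i cells. Both LPS arrays stood above both inhibitor-treated arrays, and all of these stood far above the untreated ones. LPS raised *Cd274* 11.9-fold (log2 difference 3.58, standard error 0.13, adjusted p = 0.00276). The difference between LPS+USP7i and LPS was −0.74 (95% interval −1.10 to −0.37, adjusted p = 0.0535) and did not pass. It passed with normexp correction (0.0102), with dim probes left out (0.0229), without LPS+USP7i replicate 2 (0.0272), with a trended prior (0.0378), and with the mean of a gene's probes (0.0452), in a range of 0.0102 to 0.180. With the inhibitor *Cd274* remained 7.17-fold above untreated cells (adjusted p = 0.00532), and it was the only 1 of the 10 genes still called higher in that comparison when untreated replicate 1 or 2 was left out.

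*Pdcd1lg2* stayed close to background. Its brighter probe (chr19:29545470-29545529) read 4.91 and 4.68 in untreated cells, 4.69 and 4.79 in LPS cells, and 3.86 and 4.83 in LPS+USP7i cells. It was well above background on both untreated arrays and on replicate 2 of the other groups, and the groups overlapped. The log2 difference between LPS and untreated cells was −0.06 (95% interval −1.04 to 0.93, adjusted p = 0.985), its sign changing under 75th percentile scaling and in the deposited values. The interval of LPS+USP7i minus LPS ran from −1.38 to 0.59. A second probe whose start lies within the first (chr19:29545473-29545532) was well above background in untreated cells alone and was called in no comparison.

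RefSeq promoters (GRCm38.p6, from 250 bases before to 50 after the start) were at hand for 5 of the 10 genes: *Cd80*, *Icosl*, *Cd274*, *Pdcd1lg2*, and *Slamf1*. They were searched on both strands for the κB consensus, for the ISRE-like letters GAAANNGAA, and for the GAS letters TTCNNNGAA. The κB consensus occurred in 2 of the 5 (*Icosl* and *Pdcd1lg2*), the ISRE-like letters in 1 (*Cd274*), and the GAS letters in 0, and no match overlapped another. Of 32851 promoters of this length, 8.46%, 8.56%, and 8.30% held each motif in that order, and 23.1% held any of them. Of the 3 promoters with a match, 2 belong to genes that LPS raised (*Icosl* and *Cd274*) and 1 to a gene near background (*Pdcd1lg2*). They are shown on the plus strand with the matched letters in capitals, for *Icosl* at chr10:78069118-78069417 (match from −111 to −102), for *Cd274* at chr19:29367188-29367487 (−76 to −68), and for *Pdcd1lg2* at chr19:29410669-29410968 (−244 to −235). The starts of the last pair lie 43481 bases apart. A match is a description, not a site or a cause.
Icosl: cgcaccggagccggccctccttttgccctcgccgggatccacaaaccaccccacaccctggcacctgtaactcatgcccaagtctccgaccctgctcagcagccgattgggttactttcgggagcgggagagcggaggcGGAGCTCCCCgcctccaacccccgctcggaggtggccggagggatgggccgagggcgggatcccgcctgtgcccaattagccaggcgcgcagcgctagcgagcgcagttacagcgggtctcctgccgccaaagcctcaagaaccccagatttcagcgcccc
Cd274: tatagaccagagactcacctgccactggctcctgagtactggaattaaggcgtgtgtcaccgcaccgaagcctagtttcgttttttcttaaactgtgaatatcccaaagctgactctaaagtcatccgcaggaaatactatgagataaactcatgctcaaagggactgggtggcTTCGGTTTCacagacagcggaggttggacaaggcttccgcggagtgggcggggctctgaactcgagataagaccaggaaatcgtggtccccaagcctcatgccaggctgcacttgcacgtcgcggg
Pdcd1lg2: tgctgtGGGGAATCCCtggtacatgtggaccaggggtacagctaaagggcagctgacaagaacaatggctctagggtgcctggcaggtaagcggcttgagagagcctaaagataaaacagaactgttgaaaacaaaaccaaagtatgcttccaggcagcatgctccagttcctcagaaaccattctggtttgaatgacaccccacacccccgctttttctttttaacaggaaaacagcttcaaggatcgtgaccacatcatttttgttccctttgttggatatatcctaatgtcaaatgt

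*Cd40* encodes the receptor through which T cells activate macrophages, and it had the largest decrease with the inhibitor among the 10 genes. Its probe (chr2:164897085-164897144, mm9) read 7.45 and 7.69 in untreated cells, 15.51 and 15.45 in LPS cells, and 11.61 and 12.61 in LPS+USP7i cells. The inhibitor-treated arrays fell between the other groups, far from both, and differed from each other by more than the arrays of any other group. LPS raised *Cd40* 240-fold (log2 difference 7.91, standard error 0.37, adjusted p = 0.00319). With the inhibitor it fell by 3.37 (standard error 0.37, 95% interval −4.39 to −2.35, adjusted p = 0.0228), that is, 10.3-fold to 9.68% of the signal with LPS, with differences of −3.90 and −2.84 in replicates 1 and 2. It was still 23.3-fold above untreated cells (adjusted p = 0.00931). The decrease did not pass in fits of 2 groups or without either untreated array (adjusted p = 0.0766), nor without LPS replicate 1 (0.0966) or 2 (0.0881).

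*Slamf1* encodes a receptor that macrophages and lymphocytes share and that binds itself on neighboring cells. Its probe (chr1:173730343-173730402) read 2.25 and 2.25 in untreated cells, 5.0 and 3.93 in LPS cells, and 2.27 and 2.41 in LPS+USP7i cells. Both LPS arrays were higher than all others, but LPS replicate 1 was the only array well above background. *Slamf1* was called higher with LPS (adjusted p = 0.0306), but no fold is given, since LPS replicate 2 did not stand well above background and the fitted log2 difference fell to 0.36 with normexp correction. This call was lost in fits of 2 groups and without either LPS+USP7i array (0.0755), with the deposited values (0.0558), with a replicate block (0.0508), and without untreated replicate 1 (0.130) or 2 (0.136). Its lower signal with the inhibitor than with LPS alone (adjusted p = 0.0546) missed the threshold but passed without LPS replicate 1 (0.0302) or 2 (0.0360), with normexp correction (0.0381), with the mean of a gene's probes (0.0446), and with a trended prior (0.0459).

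*Cd200r1*, whose product receives the inhibitory signal of CD200, had the opposite pattern. Its probe (chr16:44794670-44794729) read 11.17 and 11.56 in untreated cells, 9.95 and 10.47 in LPS cells, and 11.13 and 11.74 in LPS+USP7i cells. Both LPS arrays were below all others, and the inhibitor-treated and untreated arrays overlapped. The log2 difference was −1.16 (95% interval −2.04 to −0.27, adjusted p = 0.0948) for LPS minus untreated and 1.23 (95% interval 0.35 to 2.11, adjusted p = 0.113) for LPS+USP7i minus LPS, with 1.19 and 1.27 by replicate. Neither passed the threshold. Both did with normexp correction (0.0273 and 0.0326), with dim probes left out (0.0269 and 0.0331), and with a replicate block (0.0157 and 0.0367), in ranges of 0.0157 to 0.318 and 0.0326 to 0.302 over 15 alternatives.

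*Cd83* encodes a surface protein of activated dendritic cells, B cells, and macrophages. Its probe (chr13:43898276-43898335, mm9) read 12.17 and 12.02 in untreated cells, 15.24 and 15.34 in LPS cells, and 12.77 and 12.97 in LPS+USP7i cells. The LPS arrays stood apart from all others, and the inhibitor-treated arrays lay just above the untreated ones without overlap. LPS raised *Cd83* 9.16-fold (log2 difference 3.20, standard error 0.11, adjusted p = 0.00258). With the inhibitor it fell by 2.42 (standard error 0.11, 95% interval −2.72 to −2.12, adjusted p = 0.0104), to 18.7% of the signal with LPS, and the replicates differed little (−2.47 and −2.38). This was the only one of the 3 decreases that passed without each LPS and each LPS+USP7i array, and it was lost in fits of 2 groups and without untreated replicate 1 or 2 (adjusted p = 0.0561). In LPS+USP7i cells *Cd83* was 1.71-fold above untreated cells (adjusted p = 0.0241). This call was lost with the deposited values (adjusted p = 0.0609) and in fits of 2 groups (0.0619). Leaving out LPS replicate 1 or 2 gave the fit of 2 groups again. The call was also lost without untreated replicate 1 or 2 and without LPS+USP7i replicate 2.

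*Cd69* encodes a lectin that appears on leukocytes soon after activation. Its probe (chr6:129217697-129217756, mm9) read 6.02 and 5.97 in untreated cells, 15.91 and 16.41 in LPS cells, and 12.62 and 14.10 in LPS+USP7i cells. The inhibitor-treated arrays were below both LPS arrays but far apart from each other. *Cd69* had the largest increase with LPS among the 10 genes, 1148-fold (standard error of the log2 difference 0.55, adjusted p = 0.00369), with a log2 difference of 9.09 under normexp correction in place of 10.16. Its log2 difference with the inhibitor was −2.80 (95% interval −4.32 to −1.28, adjusted p = 0.0647), with −3.29 and −2.31 by replicate, and did not pass. This difference was −2.06 without LPS+USP7i replicate 1 and −3.54 without LPS+USP7i replicate 2. It passed with normexp correction (0.00934), with dim probes left out (0.0140), with the deposited values (0.0280), without LPS+USP7i replicate 2 (0.0290), and with a trended prior (0.0459), in a range of 0.00934 to 0.207. Against untreated cells it was 165-fold higher with LPS+USP7i (log2 difference 7.37, adjusted p = 0.00818). This difference was 8.10 without LPS+USP7i replicate 1, 6.63 without replicate 2, and 6.32 with normexp correction.

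**Figure D3:**
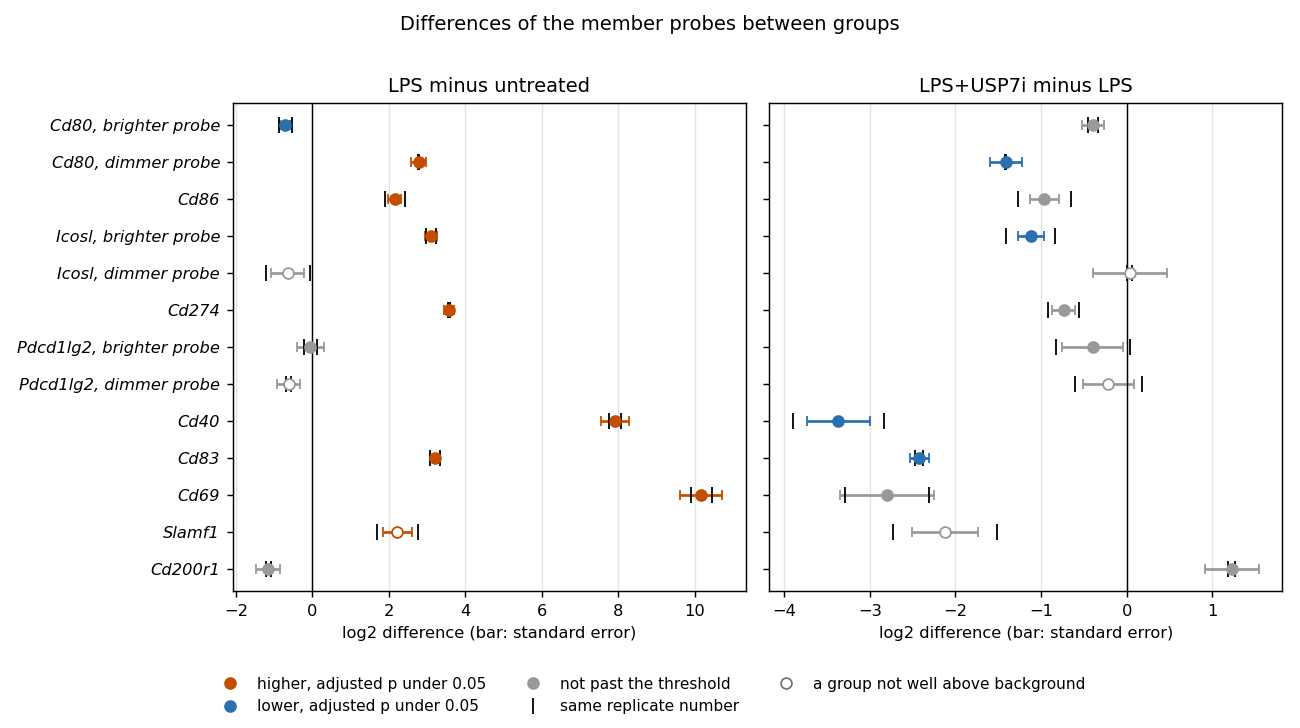
Log2 difference of all 13 probes for LPS minus untreated and LPS+USP7i minus LPS, with bars for the standard error from limma, ticks for the differences by replicate number, and open markers where a group was not well above background. With the inhibitor both ticks lie below 0 for *Cd40*, *Cd83*, *Cd69*, *Cd86*, *Cd274*, *Slamf1*, both *Cd80* probes, and the brighter *Icosl* probe, above 0 for *Cd200r1* and the *Icosl* probe at background, and on both sides of 0 for the *Pdcd1lg2* probes.

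The order of levels was therefore untreated, LPS+USP7i, LPS for *Cd40*, *Cd83*, *Cd69*, *Cd86*, *Icosl*, *Cd274*, and the dimmer *Cd80* probe, with no overlap between neighboring groups. The share of all genes with this order is not given, so it is not set against all genes. Compared with untreated cells, LPS+USP7i cells had higher *Cd69*, *Cd40*, *Cd274*, *Icosl*, *Cd86*, and *Cd83*. For *Icosl* the log2 difference from untreated was 1.98 (adjusted p = 0.00840) and for *Cd86* 1.19 (adjusted p = 0.0267). The *Icosl* difference was 0.69 with the mean of its probes. Without untreated replicate 1 or 2, 1 of the 10 genes was called higher (*Cd274*) and 1 lower (*Cd80*, brighter probe), and the smallest adjusted p of the others was 0.0529. The *Cd86* call was also lost with a replicate block (0.0568) and without LPS+USP7i replicate 1 (0.0763) or 2 (0.0976), and the *Icosl* call with the mean of its probes (0.158).

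The calls with the inhibitor were those most exposed to the choice of fit. With only 2 groups in the fit, or without untreated replicate 1 or 2, limma called 0 of the 10 genes lower, with a smallest adjusted p of 0.0561, while 8 were lower and 1 was higher at an unadjusted p under 0.05. The same fits called 0 genes of the whole array higher and 0 lower. Here too no share of all genes at the unadjusted threshold is given beside the counts of 8 and 1. With normexp background correction or a trended prior, 7 of the 10 were called lower. Over all genes, 2886 were called higher and 2373 lower with normexp correction, and 2008 and 1575 with a trended prior. In the fit reported here these counts were 1919 and 1485. Scaling to the 75th percentile moved the median difference of all genes to 0.40 for LPS minus untreated and to 0.43 for LPS+USP7i minus untreated, and the counts over all genes from 2775 higher and 4443 lower to 12092 and 4054 for the first and from 2144 and 3031 to 12134 and 3359 for the second. Relative to these shifts the medians of the 10 genes were 2.54 and 0.66 under that scaling, with 7 genes above the shift and 3 below it in each. The smallest two-sided p of an exact permutation test with 2 arrays in each group is 0.333, which leaves it unable to separate any gene here.

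**Figure D4:**
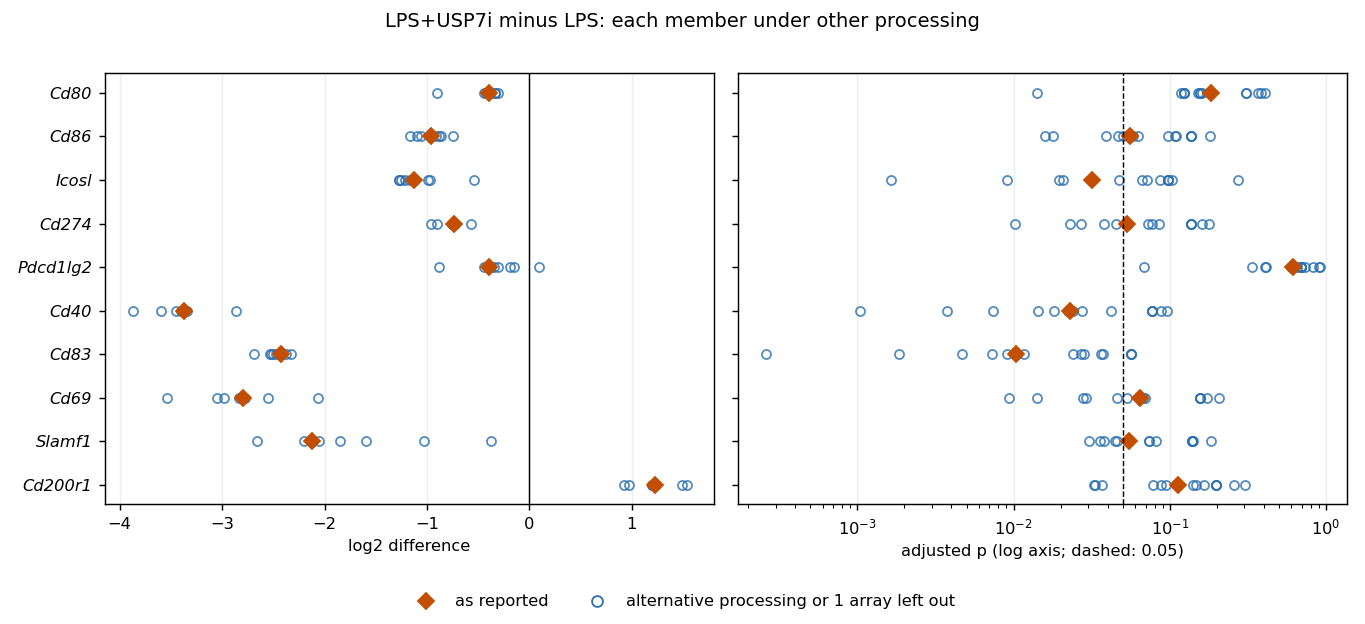
Log2 difference (left) and adjusted p on a log axis (right) of the 10 genes for LPS+USP7i minus LPS, as reported (filled) and under each alternative way of processing or with 1 array left out (open). Every gene has points on both sides of the 0.05 line except *Pdcd1lg2*, the 1 gene whose difference also changes sign.

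Over the 6 arrays, the gene whose profile lay closest to each of 9 of these genes (all but *Slamf1*, well above background on 1 array) was sought among 13432 candidates by the Euclidean distance between centered log2 profiles. Nearest to *Cd40* was *Tnfsf10* (distance 0.847), to *Cd69* *Vcam1* (0.848), to *Cd83* *Klf7* (0.255), and to *Cd274* *Mxd1* (0.220). Partners were chosen for the smallest distance over these same arrays, so a like response is built into the choice. These 4 were all raised by LPS, *Klf7* by 3.02. With the inhibitor *Klf7* differed by −2.33 (adjusted p = 0.00987) and *Tnfsf10* by −2.96 (0.0414). *Vcam1* (−2.46, 0.0670) and *Mxd1* (−0.74, 0.124) did not pass. Nearest to *Icosl* was *Helz2* (0.228), to *Cd86* *Oog2* (0.202), to the brighter *Cd80* probe *Ap2a2* (0.181), to *Pdcd1lg2* *Arl13b* (0.312), and to *Cd200r1* *Bag2* (0.111). *Bag2* differed by −1.20 with LPS and by 1.31 with the inhibitor, and neither value passed the threshold.

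Related molecules were followed in 8 further lists. Among 12 other B7 family members and checkpoint ligands, 7 were higher with LPS and 0 lower (median 0.89; 1 lower under 75th percentile scaling and in the deposited values and 3 with normexp correction), and 1 was higher and 4 were lower with the inhibitor than with LPS (median −0.38). *Nectin2*, a ligand of TIGIT and DNAM-1, read 8.52 and 8.48 in untreated cells, 11.60 and 11.67 in LPS cells, and 8.44 and 9.03 in LPS+USP7i cells. The inhibitor-treated arrays thus lay around the untreated ones: *Nectin2* rose by 3.14 (adjusted p = 0.00487) and fell by 2.90 (adjusted p = 0.0145). *Pvr*, which binds the same receptors, behaved differently on the arrays, with 8.15 and 8.28, 11.09 and 11.05, and 11.01 and 10.85 in the same order. It rose by 2.86 (adjusted p = 0.00253) and differed by −0.14 (adjusted p = 0.521) with the inhibitor, though the difference between the responses of *Pvr* and *Nectin2* was not tested. *Icam1*, the adhesion ligand of LFA-1, rose by 5.42 (adjusted p = 0.00258) and fell by 2.07 (adjusted p = 0.0168). The remaining decreases with the inhibitor were those of *Cd47*, which fell by 0.91 (adjusted p = 0.0212), and *Tnfrsf14*, which fell by 1.11 (adjusted p = 0.0315). *Havcr2*, which encodes the checkpoint receptor TIM-3, was the 1 gene of this list that was higher with the inhibitor, by 1.48 (adjusted p = 0.0338).

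Of the 6 costimulatory ligands of the TNF family, 5 were higher and 1 was lower with LPS (median 4.38, or 3.42 in the deposited values and 2.29 with normexp correction), and 2 were higher and 3 lower with the inhibitor (median −0.34). *Tnfsf9* (4-1BBL) rose by 5.33 with LPS (adjusted p = 0.00249) and fell by 1.29 with the inhibitor (adjusted p = 0.0253). *Tnfsf8* (CD30L) read 5.01 and 5.66 in untreated cells, 8.66 and 8.85 in LPS cells, and 4.54 and 5.38 in LPS+USP7i cells, so that the inhibitor-treated arrays overlapped the untreated ones, and it fell by 3.80 from LPS (adjusted p = 0.0203). *Cd70* was not well above background without LPS. With the untreated signal set no lower than the weakest signal well above background, it was 21.2-fold higher with LPS (adjusted p = 0.00311). This fold is not a lower limit. The fitted log2 difference was 3.92 in the deposited values and 2.42 with normexp correction, both below that fold. *Cd70* fell by 3.28 with the inhibitor (adjusted p = 0.0159). The opposite was seen for LIGHT, encoded by *Tnfsf14*, which read 7.77 and 8.34 in untreated cells, 5.97 and 6.69 in LPS cells, and 10.89 and 10.72 in LPS+USP7i cells. Its inhibitor-treated arrays were the highest of all, and the log2 difference was −1.73 with LPS (adjusted p = 0.0394) and 4.48 with the inhibitor (adjusted p = 0.0144). The *Tnfsf14* difference with LPS was −0.96 with normexp correction and −1.26 in the deposited values. *Tnfsf18* (GITRL), measured in the same way as *Cd70*, was 3.54-fold higher with LPS than in untreated cells (adjusted p = 0.00347). Its log2 difference was 1.74 in the deposited values and 0.80 with normexp correction, both below that fold. With the inhibitor *Tnfsf18* was a further 2.15 higher (adjusted p = 0.0142). With normexp correction the differences between LPS+USP7i and LPS were smaller, −2.29 for *Tnfsf8*, −1.85 for *Cd70*, 3.37 for *Tnfsf14*, and 1.41 for *Tnfsf18*. *Tnfsf4* (OX40L), measured in the same way as *Cd70*, was 142-fold higher with LPS (adjusted p = 0.00253), close to the fitted 143.9-fold. Its log2 difference was 6.41 in the deposited values and 4.90 with normexp correction, both below that fold. With the inhibitor *Tnfsf4* differed by 0.60 (adjusted p = 0.240).

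Of 7 other SLAM family receptors, 3 were higher and 1 was lower with LPS (median 0.91), and 0 were higher and 1 was lower with the inhibitor (median −0.14). That 1 was *Slamf7*, which rose by 2.42 (adjusted p = 0.00438) and fell by 1.23 (adjusted p = 0.0278). Under 75th percentile scaling 4 of the 7 were higher and 0 lower with LPS, and in the deposited values 3 and 0. With normexp correction 1 was higher and 2 were lower with the inhibitor. *Slamf8* and *Ly9* were higher with LPS by 1.16 (adjusted p = 0.00461) and 1.24 (adjusted p = 0.0225) and passed in neither direction with the inhibitor. Of the 3 other CD200 receptors 1 was well above background on all 6 arrays, and 0 passed with LPS (median 0.17). With the inhibitor 1 was higher, *Cd200r2* (adjusted p = 0.0219). With the LPS signal set no lower than the weakest signal well above background, it was 2.06-fold higher. Its log2 difference was 0.98 in the deposited values and 0.52 with normexp correction, both below that fold. The median of the 3 genes was −0.24 and changed sign (0.04) in the deposited values.

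Of 12 genes for CD40 signaling adaptors and non-canonical NF-κB, 7 were higher and 2 lower with LPS (median 1.80), and 2 were higher and 4 lower with the inhibitor (median −0.35). The 4 that were lower are *Traf1*, which fell by 1.64 (adjusted p = 0.0245), *Birc2*, which fell by 1.55 (adjusted p = 0.0181), *Nfkb2*, which fell by 1.44 (adjusted p = 0.0215), and *Birc3*, which fell by 1.27 (adjusted p = 0.0225). All 4 had been raised by LPS, by 3.59, 1.99, 3.49, and 2.79. The other probe of *Birc3* differed by −1.06 with the inhibitor (adjusted p = 0.0789). The 2 that were higher encode NIK (*Map3k14*), the kinase of the non-canonical branch, and *Traf3*, the adaptor that holds NIK down. *Map3k14* read 10.79 and 10.41 in untreated cells, 8.00 and 7.98 in LPS cells, and 10.04 and 9.74 in LPS+USP7i cells. It fell by 2.61 with LPS (adjusted p = 0.00474) and was 1.90 higher with the inhibitor (adjusted p = 0.0183), while its other probe gave −1.15 (adjusted p = 0.0744) and 0.78 (adjusted p = 0.226). *Traf3* fell by 0.48 (adjusted p = 0.0456) and was 1.49 higher with the inhibitor (adjusted p = 0.0126). *Tnfaip3*, which encodes the NF-κB inhibitor A20, rose by 4.89 with LPS (adjusted p = 0.00155) and differed by −0.39 with the inhibitor (adjusted p = 0.0772). Under 75th percentile scaling 9 of the 12 were higher and 1 was lower with LPS, and in the deposited values 7 and 1. With normexp correction 8 were higher and 2 lower with LPS, and 3 were higher and 5 lower with the inhibitor.

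Of 9 genes for adaptors of SLAM and CD200 receptors, 0 were higher and 4 were lower with LPS (median −0.47, and −0.89 for LPS+USP7i minus untreated), and 2 were higher and 1 was lower with the inhibitor, with a median of 0.06 that became −0.10 under 75th percentile scaling. Under that scaling 3 were higher and 4 lower with LPS, with a median of −0.08. The adaptor EAT-2, encoded by *Sh2d1b1*, read 8.28 and 8.45 in untreated cells, 4.98 and 5.02 in LPS cells, and 7.44 and 7.51 in LPS+USP7i cells. All 3 groups stood apart, and the inhibitor-treated arrays were 2.47 above those with LPS (adjusted p = 0.00987), or 1.16 with normexp correction and 1.78 in the deposited values. The phosphatase gene *Inpp5d* fell by 2.14 with LPS (adjusted p = 0.00280) and was 0.53 higher with the inhibitor (adjusted p = 0.0388), *Dok2* fell by 1.50 with LPS (adjusted p = 0.00401), and *Ptpn6* fell by 1.48 with the inhibitor (adjusted p = 0.0181). Of 7 genes for proteins that control CD86 and PD-L1 after translation, 2 were higher and 1 was lower with LPS, with a median of −0.02 that was positive under 75th percentile scaling, normexp correction, and the deposited values, and 0 were higher and 1 was lower with the inhibitor (median 0.25). *Cmtm6*, whose product protects PD-L1 from degradation, rose by 1.15 with LPS (adjusted p = 0.0260), *Cul3* rose by 0.68 (adjusted p = 0.0126), and *Marchf8*, which encodes a ubiquitin ligase of CD86, fell by 0.82 (adjusted p = 0.00711). The 1 lower with the inhibitor was *Spop*, which fell by 0.58 (adjusted p = 0.0446) and on its other probes differed by −0.91 (adjusted p = 0.0151) and −0.56 (adjusted p = 0.0620). With LPS the *Spop* probes differed from each other, the brightest at −0.02 (adjusted p = 0.978, positive under all 3 scalings) and the others called higher by 0.97 and 0.66.

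Of 5 T cell counter-receptors, 1 was well above background on all 6 arrays, *Cd28*, and it was also the 1 that passed in the fit reported here. It read 12.61 and 12.88 in untreated cells, 10.49 and 10.49 in LPS cells, and 12.23 and 12.33 in LPS+USP7i cells. The LPS arrays were the lowest by far, and the inhibitor-treated arrays were just below the untreated ones. *Cd28* fell by 2.26 with LPS (adjusted p = 0.00343) and was 1.79 higher with the inhibitor (adjusted p = 0.0126). The medians of the 5 were 0.04 for LPS minus untreated, which changed sign (−0.01) with normexp correction and in the deposited values, and 0.00 for LPS+USP7i minus LPS. Under 75th percentile scaling, which moves all genes up, 3 of the 5 were higher and 1 was lower with LPS, with a median of 0.65. None of the decreases and increases with the inhibitor that are named in these lists changed direction under 75th percentile scaling, normexp correction, or the deposited values, but not all calls held. Under 75th percentile scaling and in the deposited values, the post-translational regulators had 0 genes lower by limma in place of 1, and the SLAM and CD200 receptor adaptors 1 higher in place of 2. Under 75th percentile scaling the B7 and checkpoint list had 3 lower in place of 4. All these calls are absent from the fits that called 0 genes.

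**Figure D5:**
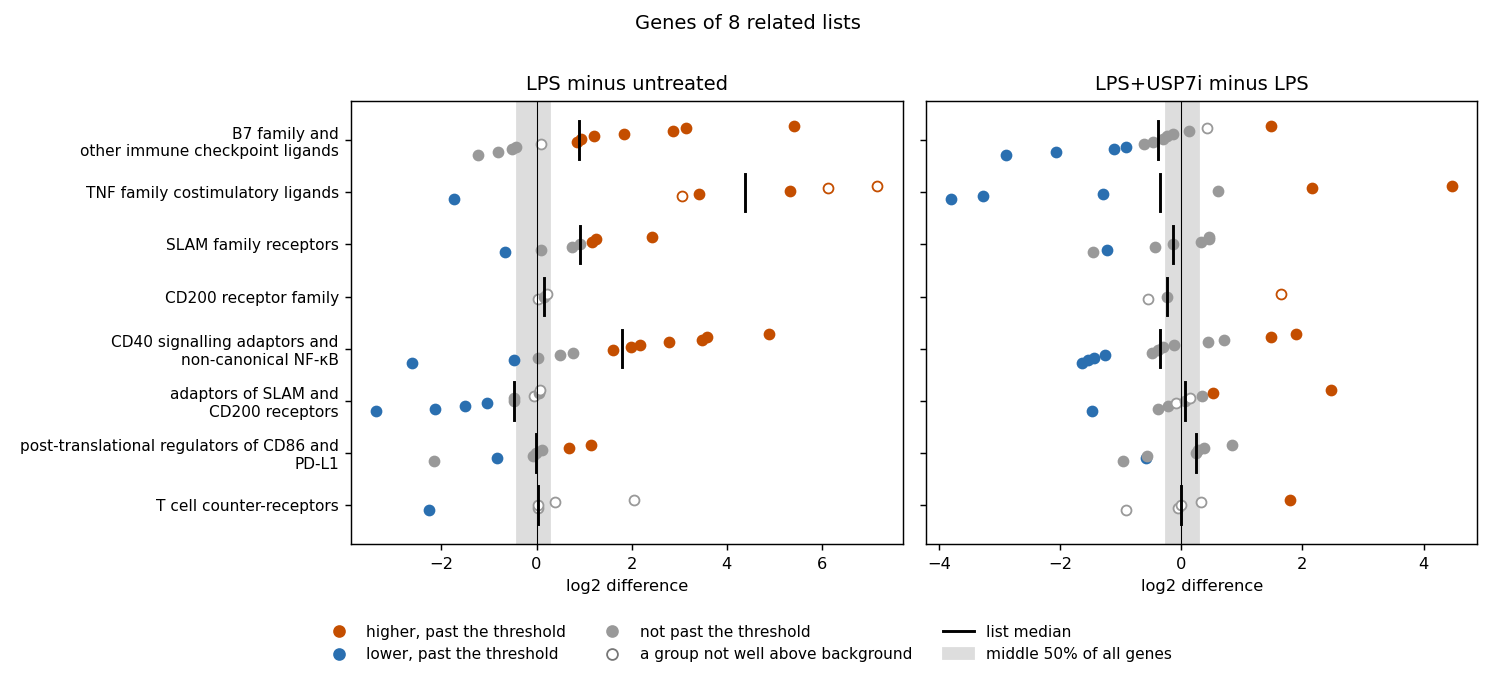
Log2 difference of each gene of the 8 related lists, for LPS minus untreated and LPS+USP7i minus LPS, one point per gene, a bar at each list's median, a gray band for the middle 50% of all genes, and open markers where a group was not well above background. The TNF family ligands have the highest median with LPS (4.38, or 2.29 with normexp correction), although 3 of the 6 genes were near background without LPS, and the list medians with the inhibitor lie between −0.38 and 0.25, with the sign of the median changing under a scaling for the CD200 receptors and the SLAM and CD200 receptor adaptors with the inhibitor and for the post-translational regulators and T cell counter-receptors with LPS.

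The cultures were checked against marker lists. All 8 macrophage markers were well above background on all 6 arrays. Their summed normalized signal was 729300 and 721300 in untreated cells, 723700 and 748600 in LPS cells, and 628300 and 587300 in LPS+USP7i cells. The *Csf1r* probe gave the largest part of this sum over all arrays. On LPS+USP7i replicate 2 the *Cd68* probe was just above that of *Csf1r* (log2 signal 17.32, beside 17.31). Signals of different probes do not order genes by abundance, here or in the other marker lists. Of these 8, *Cd14* was higher and *Itgam* was lower with LPS, and *Cd14* and *Fcgr1* were lower with the inhibitor. Under 75th percentile scaling 3 of the 8 were higher and 0 lower with LPS, and with normexp correction 3 were lower with the inhibitor. Under 75th percentile scaling 2 markers in each of the dendritic and T cell lists that follow were higher with LPS. Of 8 markers of conventional dendritic cells, in which several of the costimulatory genes are also high, 2 were well above background on all arrays, and *Flt3*, *Xcr1*, *Clec9a*, and *Cd209a* on none. Their summed signal was 4956 and 8589, 5032 and 7097, and 5501 and 6954 in the same order of groups, with the *Itgax* probe its largest part. Of these markers 1 (*Zbtb46*) was higher with LPS and 0 passed with the inhibitor. Of 8 T cell markers, in whose cells *Cd28*, *Cd40lg*, and *Cd69* are also expressed, 4 were well above background on all arrays and *Cd3g*, *Trac*, and *Cd8a* on none. Their summed signal was 2355 and 2160 in untreated cells, 4341 and 4499 in LPS cells, and 2747 and 2225 in LPS+USP7i cells. Over all arrays the *Cd4* probe gave the largest part of this sum, but on the LPS arrays the *Lck* probe did (log2 signal 10.94 and 11.30, beside 10.68 and 10.35 for *Cd4*). *Lck*, the 1 T cell marker that passed, rose by 4.23 with LPS (adjusted p = 0.00331) and fell by 2.47 with the inhibitor (adjusted p = 0.0161), and the part of other cells in the values of *Cd69* was not tested.

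*Usp7* itself, the target of the inhibitor, read 11.95 and 11.98 in untreated cells, 12.41 and 12.40 in LPS cells, and 12.11 and 12.43 in LPS+USP7i cells on its brighter probe. The LPS arrays were above the untreated ones and overlapped those with the inhibitor. Its log2 difference was 0.44 with LPS (adjusted p = 0.104) and −0.14 with the inhibitor (95% interval −0.49 to 0.21, adjusted p = 0.627), and it was called in neither. The other *Usp7* probe differed by −0.11 and 0.14.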

How the data were processed

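Total RNA of mouse BMDMs was measured on 6 one-color Agilent arrays (Cy3), 2 in each of 3 groups, with replicates from independent experiments according to the series design. The authors deposited the Feature Extraction 10.7.3.1 output of each array, in which each spot intensity is background-corrected by the scanner software. A second file by the authors holds log2 values, quantile-normalized between arrays. Their methods name limma 3.38.3 with quantile normalization and a linear model at an adjusted p of 0.05, but no background correction and no filter for weak signals.

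In the present work the processed signal was taken on the log2 scale and quantile-normalized over spots that were not controls, spots marked as outliers by the scanner software were then left out, and spots of a probe were averaged. limma 3.58.1 in R 4.3.3 fitted all 6 arrays at once (3 residual degrees of freedom, 1.05 prior degrees of freedom), and p values were adjusted by Benjamini-Hochberg over 55680 probes. Probes were named through their accession (26762), symbol (3819), or a synonym (639) in the RefSeq gene table, and otherwise kept the name in the file (24461). For a gene with several probes the one of highest mean signal was used, and the other probes of the 10 genes are given beside it. Where a group was not well above background, its signal on each array was set no lower than the lowest signal well above background there. Folds taken this way hold on the scale of this normalization. They are not lower limits, since a spot not well above background can read above that lowest signal. The number of arrays limits the precision of every value. All per-sample columns were mapped (0 were not).

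The members, the 8 related lists, the 7 marker lists, and the 3 promoter motifs were chosen with earlier results of these data known, so they carry no test of their own. Named from the related lists were every gene past the threshold with the inhibitor, the 3 with the largest called difference with LPS, and, beside each member well above background on at least 2 arrays, the gene with the closest profile. The alternatives were 75th percentile scaling, normexp background correction (offset 50), the deposited values, keeping outlier spots, leaving out dim probes, a trended prior, fits of 2 groups, a replicate block, the mean of a gene's probes, a log2 difference of at least 1, and each array left out in turn. For a gene with 1 probe, such as *Cd86*, *Cd274*, or *Slamf1*, the mean of a gene's probes left the difference unchanged and moved only its adjusted p. Taking *Cd80* from its dimmer probe was added after its values were seen. The procedure was tested on simulated data with independent errors and a single large size of difference. These arrays differ from that setting, since deviations of the same replicate number correlated across groups. The simulation therefore does not bear on how well the smaller differences here are called.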

Additional observations from a re-analysis of the deposited data

How the results depend on the processing

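Of 149 values of single genes recomputed for LPS minus untreated, 129 kept their direction and their side of the threshold, 13 were no longer past it, 3 came past it, and 4 changed sign. For LPS+USP7i minus LPS these counts were 109, 16, 23, and 1 of 149, and for LPS+USP7i minus untreated 119, 24, 0, and 6 of 149. The increases of *Cd40*, *Cd86*, *Icosl*, *Cd274*, *Cd83*, and *Cd69* with LPS passed in 15 of 15 alternatives. Leaving out an array of the group not compared gave the fit of 2 groups again. The same result therefore enters these counts, and those over 15 alternatives, more than once. Where a result changed, the cause was not tested, except that leaving out an array or a group leaves fewer samples.

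With *Cd80* taken from its dimmer probe, 0 genes were lower with LPS and 0 were lower in LPS+USP7i minus untreated, whose median was 1.28. With the mean of a gene's probes these counts were again 0 and 0, 6 genes were lower with the inhibitor than with LPS, the medians were 2.18 for LPS minus untreated and 0.73 for LPS+USP7i minus untreated, and *Cd80* differed by 1.03 (called higher) and 0.13 (adjusted p = 0.444, not called) in these comparisons. With dim probes left out, which removes *Slamf1*, 2 genes were lower with LPS, 6 were lower and 1 was higher with the inhibitor than with LPS, and the medians against untreated cells were 3.1 and 1.19. Over all genes, 5198 were lower with LPS in that setting. With normexp correction 2 were lower with LPS, beside 5314 over all genes, and 7 were lower and 1 was higher with the inhibitor. With a trended prior 7 were lower with the inhibitor. With a replicate block 2 were lower with LPS and 1 was higher with the inhibitor, beside 4706 and 1425 over all genes. Fits of 2 groups called 0 genes lower in each of the 3 comparisons. With a log2 difference of at least 1 required, 0 were lower with LPS. *Pdcd1lg2* differed by 0.0045 between LPS and untreated cells under 75th percentile scaling and by 0.0066 in the deposited values, and *Slamf1* by −0.0186 with normexp correction and −0.0352 in the deposited values between LPS+USP7i and untreated cells.

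With each array left out in turn, the number of the 10 genes higher with LPS ran from 6 to 7 and the number lower from 0 to 1, with a median of 2.45 to 2.95. For LPS+USP7i minus LPS, 0 were higher (0 in each), 0 to 5 were lower, and the median ran from −1.21 to −0.87. For LPS+USP7i minus untreated, 1 to 5 were higher, 0 to 1 were lower, and the median ran from 0.88 to 1.08. *Pdcd1lg2* ran from −0.17 to 0.0555 for LPS minus untreated, from −0.88 to 0.0929 for LPS+USP7i minus LPS, and from −0.94 to 0.0369 for LPS+USP7i minus untreated, and *Cd200r1* from −0.23 to 0.38 in the last. A group left with 1 array is assumed to vary like the others, and the counts of the 10 genes in these fits are not set against all genes.

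Over all genes, LPS+USP7i minus LPS called 1919 higher and 1485 lower, beside 2886 and 2373 with normexp correction and 2780 and 2362 with dim probes left out. With 1 array left out these counts ran from 0 to 1906 and from 0 to 1186. Arrays of different groups share a replicate number, 2 per group, which is also the slide column. The series design says that replicates are independent experiments, but not whether a number stands for the same experiment in each group, and experiment and slide column cannot be told apart. Deviations of arrays of the same number from the group mean correlated across probes at 0.468 for untreated and LPS, 0.398 for untreated and LPS+USP7i, and 0.422 for LPS and LPS+USP7i. With a replicate block, 6 of the 10 genes were higher with LPS and 2 were lower with the inhibitor than with LPS, beside 2932 and 1124 over all genes. *Cd86* was no longer called above untreated cells with LPS+USP7i in that fit (adjusted p = 0.0568).

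Signal over background limits *Slamf1* and *Pdcd1lg2*, and 2 arrays a group limit every interval. The arrays measure RNA and not the surface proteins. Slide row and any effect of the solvent cannot be told apart from treatment.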

Other observations

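The remaining marker lists, for cells that the labels do not name, had few genes past the threshold. Of 6 B cell markers 3 were well above background on all 6 arrays, 0 passed with LPS by limma and 1 was higher with the inhibitor (*Pax5*), and their summed normalized signal, highest for *Cd79b* over all arrays but for *Cd22* on LPS+USP7i replicate 2 (log2 signal 7.90, beside 7.69), was 1287 and 924.5 in untreated cells, 1340 and 729.2 in LPS cells, and 984.5 and 553.3 in LPS+USP7i cells. Of 5 NK cell markers 1 was well above background on all arrays (*Prf1*), and *Klrk1*, which passed in both LPS comparisons, and *Eomes* were so on none. Of 7 neutrophil markers 6 were well above background on all arrays, with the *Elane* probe the largest part of their signal over all arrays but *S100a9* on LPS replicate 2 (log2 signal 12.38, beside 11.36 for *Elane*), and 0 passed in either LPS comparison. Of 6 fibroblast markers 0 were well above background on all arrays and *Col1a1*, *Col3a1*, and *Pdgfra* on none, and 0 passed. These values were not tested against those of the 10 genes.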
